A study of Mus musculus with 2 samples.

Results

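The nuclei described here held Sim1 transcript and came from tissue of the paraventricular hypothalamus (PVH). Those that carried the hashtag named Q153R are set beside those that carried the hashtag named Ctrl. They were chosen as barcodes with at least 500 detected genes, exactly 1 positive hashtag and at least 1 Sim1 UMI (a UMI, or unique molecular identifier, counts 1 captured RNA molecule). Of the 6157 barcodes with that many genes, 2349 met the rule, 1169 tagged Q153R and 1180 tagged Ctrl. The rule does not make each of them a PVH neuron. When clustered, 199 fell in a cluster led by Pmch and 5 in one led by the astrocyte marker Slc1a3. A further 899 Sim1 nuclei carried the hashtag named KD. Nuclei with more than 1 positive hashtag (1124) were left out, which removes doublets between pools but not within one.

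The tissue came from 17 mice aged 4 weeks, and nuclei positive for GFP were sorted. Ctrl stands for 7 mice of genotype Sim1-Cre; Sun1-GFP without an altered Otp allele. Q153R stands for 6 mice that carried Sim1-Cre, Sun1-GFP and 1 Otp allele with the Q153R change beside a wild-type allele. KD, which the labels do not spell out, is matched by elimination to 4 mice with Sim1-Cre, the reporter and a floxed Otp allele over wild type (Otp fl/+). All 3 groups therefore carried the Cre driver and the reporter, a GFP-tagged nuclear envelope protein switched on in the Sim1-Cre lineage. The mice of a genotype shared 1 hashtag, so nuclei of single animals cannot be told apart and each genotype is 1 pool without replicates. No test between genotypes was possible, and the intervals below are 95% intervals that cover counting error only.

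Otp (orthopedia) encodes a homeodomain transcription factor that is needed for the birth and maturation of the neuroendocrine neurons of the PVH. These neurons make oxytocin, vasopressin, corticotropin-releasing hormone, thyrotropin-releasing hormone and somatostatin, and they also depend on Sim1, its dimer partner Arnt2 and Pou3f2. Q153R names a change of glutamine to arginine. The coding sequence around it is shown because the whole comparison rests on this codon, which is in capitals and lies in the DNA-reading helix of the homeodomain.
Otp-201 coding strand: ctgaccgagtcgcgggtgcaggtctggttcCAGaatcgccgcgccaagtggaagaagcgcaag
The codon, CAG, lies at chr13:94883099-94883101 on the plus strand (GENCODE vM21, GRCm38), in exon 3 of 3 coding exons. The 63 bases shown join exon 2 to exon 3, from 94877502 to 94883131, and are the reference sequence, not reads. The transcript has 325 codons.

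Sim1 nuclei made up 73.5% of the nuclei with 1 tag in Q153R (1169 of 1591, 71.2–75.6) and 60.02% in Ctrl (1180 of 1966, 57.8–62.2). The Q153R nuclei held 6325540 gene UMIs with a median of 5022 per nucleus, and the Ctrl nuclei 7547327 with a median of 5866. The pools also differed in sex: 47.0% of Q153R and 70.8% of Ctrl nuclei had 3 or more Xist UMIs with none from Y-linked genes (called Xist nuclei below), and 29.6% and 12.8% had 2 or more Y-linked UMIs (called Y nuclei). Pan-neuronal markers summed to 7785 CPM (a gene's UMIs scaled to a library of 1e+06 UMIs) in Q153R and 7721 CPM in Ctrl. GABAergic markers summed to 40.8 and 56.7 CPM, astrocyte markers to 73.8 and 81.4 CPM, oligodendrocyte markers to 50.1 and 50.5 CPM, oligodendrocyte precursor markers to 947 and 861 CPM, microglial markers to 68.8 and 70.1 CPM, endothelial markers to 7.59 and 6.49 CPM, and ependymal markers to 15.02 and 20.4 CPM. The astrocyte marker Gfap, the oligodendrocyte marker Opalin, the endothelial marker Slco1a4 and the ependymal marker Ccdc153 had 0 UMIs in both pools. The part of depth, sex and type mix in the differences below was not tested, and values within clusters or within sex classes are given beside some of them.

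The transcriptomes of the 2 pools were close. A total of 8157 genes had at least 200 UMIs over both pools and were compared, with the level in Q153R divided by that in Ctrl. Of these, 29 were past 1.5-fold higher in Q153R (0.356%) and 24 past 1.5-fold lower (0.294%), and 7 were past 2-fold higher and 1 past 2-fold lower. KD against Ctrl, which shares the Ctrl nuclei, gave 17 genes of 8118 past 1.5-fold higher (0.209%) and 36 lower (0.443%), and Q153R against KD gave 45 of 7760 higher (0.58%) and 24 lower (0.309%). The median log2 ratio over all compared genes was −0.02, with 44.5% of the ratios above 1 and 55.5% below 1. Counts above or below 1 in the gene lists further on have these shares as their background. The 10 genes with the most UMIs, which include the nuclear RNAs Malat1 (0.991, 0.982–1.001) and Meg3 (1.01, 0.999–1.03) and the adhesion genes Lsamp (0.990, 0.981–1.0002) and Lrrtm4 (1.06, 1.05–1.08), lay close to 1. Among the 440 genes with at least 5000 UMIs, the log2 ratios had an SD of 0.11, against 0.03 from counting alone, and 95% of them lay between −0.19 and 0.23. The calls lie at the edge of a continuum: Alkal2 (1.501) and Tbc1d8b (1.507) were just past the higher threshold and Mknk1 (1.488) just short of it, while Satb1 (0.6662) was just past the lower and Rhobtb1 (0.6682) just short. Of the 29 higher genes, 28 stayed above 1 within clusters of the Sim1 nuclei and 22 stayed past 1.5-fold. Of the 24 lower genes, all 24 stayed below 1 within clusters and 14 past 1.5-fold. The genes past 1.5-fold were mostly of modest level.

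**Figure D1:**
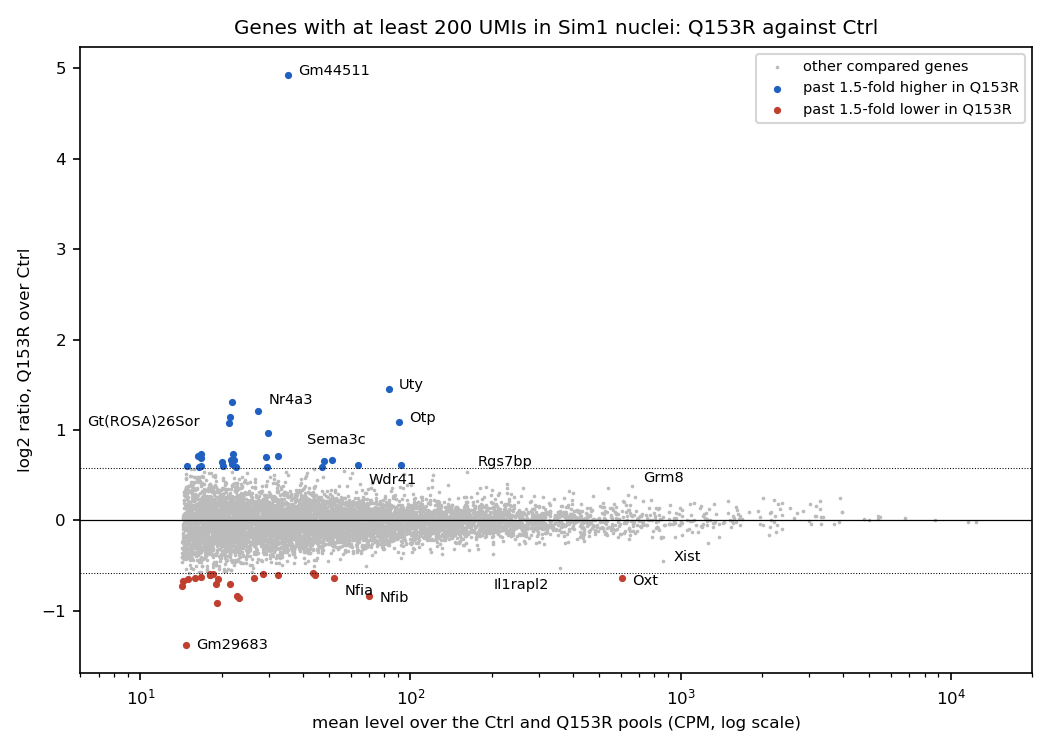
Each point is 1 of the 8157 genes compared in Sim1 nuclei, with its mean level in CPM over both pools (log scale) and its log2 ratio of Q153R to Ctrl, and dotted lines mark 1.5-fold. Most genes lie within the dotted lines, Gm44511 stands far above all others with a ratio of 30.2, and Oxt is the lower gene with the highest level.

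The highest ratio by far was that of an unnamed model, Gm44511, annotated as protein coding on the minus strand of chr6:128780285-128826315. It had 431 UMIs in 350 of the Q153R nuclei, 17 UMIs in 17 of the Ctrl nuclei and 14 UMIs in KD, or 68.1, 2.25 and 2.24 CPM. Q153R alone was high, and the other pools were level. The ratio of Q153R to Ctrl was 30.2 (18.7–52.4), and it was 28.7 (17.8–46.4) within clusters, above 1 in 10 of 10 clusters with enough UMIs. In these 10 clusters Q153R stood between 59.5 and 118 CPM, while Ctrl stood between 0 and 4.69 CPM. In Xist nuclei the ratio was 26.6 (15.2–50.9). In Y nuclei Ctrl had 0 UMIs and Q153R had 142, or 68.6 CPM.

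Another chromosome 6 gene past 2-fold was Gt(ROSA)26Sor, the noncoding transcript of the ROSA26 locus, which is widely used to hold reporter transgenes. Whether the reporter of these mice sits there is not given in the sources used here. The gene stood at 28.8 CPM in Q153R, against 13.6 in Ctrl and 10.7 in KD. The ratio was 2.11 (1.65–2.71), and Q153R was higher in 5 of 5 clusters, with 2.13 (1.54–2.95) in Xist nuclei and 2.36 (1.31–4.55) in Y nuclei. Among the 13 compared genes within 1 Mb, listed apart from Gt(ROSA)26Sor itself, none was past 1.25-fold, and its neighbours Setd5 and Thumpd3, the latter overlapping it on the opposite strand, were at 1.01 (0.956–1.07) and 0.9001 (0.711–1.14). Genes past 1.25-fold in either direction numbered 2 of 26 between 1 and 5 Mb away (7.69%), 13 of 81 between 5 and 20 Mb (16.0%) and 30 of 297 farther away on the chromosome (10.1%), against 561 of all 8157 (6.88%). Gm44511 lies 15.7 Mb from Gt(ROSA)26Sor. Near it on chromosome 6, Pzp, which encodes an alpha-2-macroglobulin family protease inhibitor, stood at 25.6 CPM in Q153R and 39.0 CPM in Ctrl, a ratio of 0.657 (0.539–0.799). Its ratio was 0.452 (0.331–0.608) in Xist nuclei and 0.780 (0.531–1.15) in Y nuclei. Gm10069 beside it was lower too (0.738, 0.626–0.869), while Fkbp4, which encodes a cochaperone of steroid receptors, was higher (1.29, 1.04–1.60). Pzp and Gm10069 overlap on opposite strands, and whether the counting used strand is not given in the sources used here, so their reads may not be told apart. Both lay on the other side of 1 from Gm44511.

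**Figure D2:**
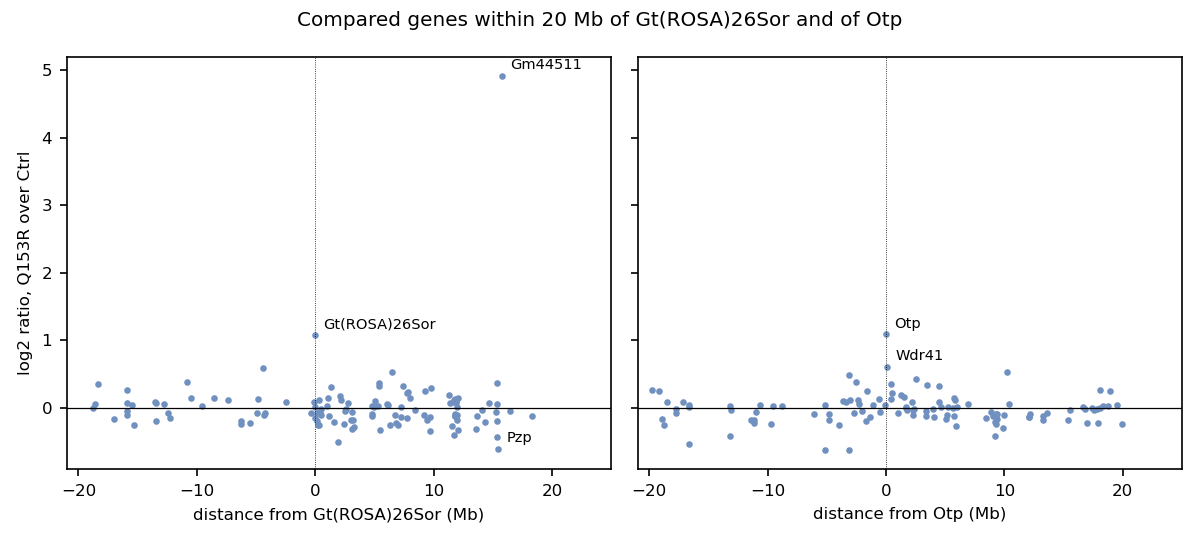
Log2 ratios of Q153R to Ctrl are plotted against distance in Mb from Gt(ROSA)26Sor (left) and from Otp (right), 1 point per compared gene within 20 Mb. Gm44511 lies 15.7 Mb from Gt(ROSA)26Sor with Pzp beside it below 0, and Otp and Wdr41 lie together above 0.

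Otp itself stood at 123 CPM in Q153R, against 57.9 in Ctrl and 93.9 in KD, a ratio to Ctrl of 2.13 (1.89–2.40). The counts do not tell the Q153R allele from the wild-type allele. Q153R was higher in 19 of 19 clusters, from 1.06 in cluster 14, led by Ucn3, to 6.37 in cluster 16, led by 6530403H02Rik and Nfib, where it rests on 7 and 14 UMIs. In cluster 15, the Oxt cluster, it went from 58.7 to 227 CPM, and in cluster 0, led by Sv2c and Crh, from 24.2 to 103 CPM. Otp was higher in both sex classes, at 2.49 (2.15–2.88) in Xist nuclei and 1.83 (1.35–2.53) in Y nuclei. Wdr41, which encodes a partner of C9orf72 in lysosomal signalling and starts next after Otp on the same strand, stood at 77.1 CPM in Q153R, against 50.6 in Ctrl and 297 in KD. Its ratio was 1.52 (1.33–1.75), above 1 in 17 of 18 clusters. The pools were thus ordered differently for the 2 genes, with Otp highest in Q153R and Wdr41 in KD. The other genes compared within 1 Mb of Otp were not past 1.5-fold: Tbca was at 1.02 (0.912–1.15), Ap3b1 at 0.962 (0.872–1.06), Pde8b at 1.09 (1.03–1.16) and Zbed3 at 1.27 (0.966–1.68). Past 1.25-fold were 2 of 7 genes within 1 Mb of Otp (28.6%), 6 of 36 between 1 and 5 Mb (16.7%), 5 of 70 between 5 and 20 Mb (7.14%) and 19 of 220 farther away (8.64%).

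**Figure D3:**
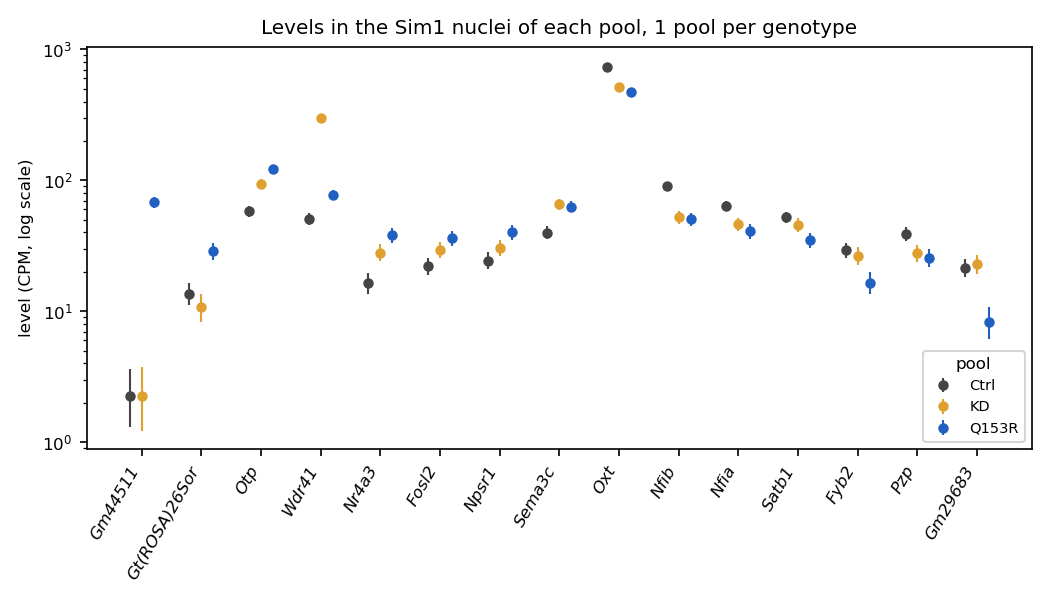
Levels in CPM (log scale) of 15 genes in the Sim1 nuclei of the Ctrl, KD and Q153R pools, with exact Poisson 95% intervals for counting error. Gm44511 and Gt(ROSA)26Sor were high in Q153R alone, Wdr41 was highest in KD, and Gm29683 and Fyb2 were low in Q153R.

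Among the other higher genes were regulators of transcription, guidance and signalling. Nr4a3, an orphan nuclear receptor induced by activity, had 2.32 (1.86–2.90) times the Ctrl level, and Fosl2, a Fos family factor, 1.63 (1.33–2.001) times. Fosl2 had 1.30 (0.995–1.70) in Xist nuclei and 3.48 (1.97–6.61) in Y nuclei, and 1.16 with all nuclei thinned to 2942 UMIs. Nr4a3 was concentrated in cluster 0, led by Sv2c and Crh, where it went from 88.0 CPM in Ctrl to 205 CPM in Q153R. Sema3c, which encodes a secreted axon guidance ligand, stood at 63.1 CPM in Q153R, 39.7 in Ctrl and 65.9 in KD, so KD and Q153R were level and Ctrl lower. Its ratio was 1.59 (1.36–1.85), but it was higher in only 4 of 8 clusters: cluster 0 went from 75.9 to 193 CPM and cluster 17, led by Aox3 and Etv1, from 178 to 348 CPM, while cluster 7, led by Reln, stood at 227 CPM in Ctrl and 171 CPM in Q153R. Cluster 0 held 163 of the 241 Nr4a3 UMIs in Q153R.

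Npsr1, which encodes the receptor for the arousal peptide neuropeptide S, stood at 40.0 CPM in Q153R, against 24.4 in Ctrl and 30.5 in KD, a ratio of 1.64 (1.35–1.99). Its pattern across neuron types was split. In cluster 12, led by Bnc2 and Ebf2, it went from 40.6 CPM (11 UMIs) to 237 CPM (77 UMIs), a ratio of 5.85 (3.09–12.2). In cluster 1, led by Pmch and Zic1, it went from 29.3 to 132 CPM, a ratio of 4.51 (2.71–7.93). Cluster 10, whose leading genes include Ppp1r17, ran the other way, from 166 CPM (50 UMIs) to 30.4 CPM (7 UMIs), a ratio of 0.183 (0.0701–0.406). In cluster 16 the 21 Ctrl UMIs faced 0 in Q153R. A single nucleus held 4.12% of all its UMIs, and without the deepest 10% of nuclei the pooled ratio was 1.19. Q153R was higher in some clusters and lower in others.

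Other named genes past 1.5-fold higher were of low level. Tiparp, a PARP enzyme induced by the aryl hydrocarbon receptor, had a ratio of 1.57 (1.34–1.84). Col8a1, a collagen chain, had 1.54 (1.22–1.96) and was higher in 5 of 6 clusters, with 191.8 CPM against 117 CPM in the Oxt cluster. Slc8a2, a sodium-calcium exchanger, had 1.66 (1.26–2.18), Cdc42ep3, a Cdc42 effector, 1.57 (1.23–2.01), and Rcc2, a regulator of chromosome condensation, 1.52 (1.19–1.94). Rrad, a small GTPase that restrains calcium channels, had 1.51 (1.14–2.02), and Plxdc1, a plexin-domain membrane protein, 1.61 (1.23–2.12). Of the unnamed models, Gm15446 had 1.66 (1.31–2.11) and Gm26870 1.59 (1.26–2.02), with 1.32 (0.969–1.80) and 1.51 (1.09–2.09) in Xist nuclei and 2.82 (1.55–5.56) and 1.05 (0.579–1.96) in Y nuclei. The 4 Y-linked genes past the threshold, Uty, Eif2s3y, Ddx3y and Kdm5d, had ratios from 1.96 to 2.73, and the X-linked Xist had 0.735 (0.708–0.763), with the sex mix given above.

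Lower genes included 3 transcription regulators whose ratios differed between the sex classes. Nfib and Nfia, nuclear factor I proteins that pattern neurons and glia, and Satb1, a chromatin organiser, were past 1.5-fold lower. Nfib was at 50.4 CPM in Q153R against 90.1 in Ctrl and 52.1 in KD, with a ratio of 0.560 (0.488–0.640). Nfia was at 40.8 CPM against 63.6 in Ctrl and 46.2 in KD, with a ratio of 0.641 (0.549–0.748), and Satb1 at 34.8 CPM against 52.2 and 45.7, with a ratio of 0.666 (0.562–0.788). Within clusters the ratios were 0.776 (0.678–0.888), 0.857 (0.731–1.004) and 0.739 (0.627–0.872). In Xist nuclei they were 0.808 (0.670–0.971), 1.02 (0.822–1.26) and 0.977 (0.766–1.24), so of the 3 intervals that of Nfib lay below 1. In Y nuclei they were 0.225 (0.174–0.289), 0.260 (0.192–0.349) and 0.294 (0.213–0.403). The levels differed most on the Ctrl side, where Y nuclei held Nfib at 196 CPM and Xist nuclei at 69.1 CPM, against 44.0 and 55.8 CPM in Q153R.

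All 3 genes were among the leading genes of cluster 16, which also expressed Rspo2, Kitl, Pparg and Il1rapl2. Genes of the lists and genes past 1.5-fold were left out of the clustering. Cluster 16 held 49 of 1180 Ctrl nuclei, or 4.15% (3.09–5.45), and 17 of 1169 Q153R nuclei, or 1.45% (0.850–2.32), with 2.34% in KD. Among Y nuclei it held 22 of 151 in Ctrl (14.6%) and 2 of 346 in Q153R (0.578%). Among Xist nuclei it held 11 of 836 in Ctrl (1.32%) and 11 of 550 in Q153R (2.0%). The pools thus differed in this share among Y nuclei, of which Ctrl had 151. The dissection and the sort can set such shares, and the number of male mice per pool is not given in the sources used here. Inside cluster 16 the level of Nfia was 602 CPM in Ctrl and 299 CPM in Q153R, and that of Nfib was 870.4 and 659.8 CPM. The Q153R levels there rest on 17 nuclei, of which 2 were Y nuclei and 11 Xist nuclei, against 22 and 11 of 49 in Ctrl. The part of the sex mix in these levels was not tested. Il1rapl2, a synaptic adhesion receptor named here after its values were seen, followed the pattern of Nfib. It stood at 424 CPM in Ctrl and 294 CPM in Q153R over all nuclei. The ratio of Il1rapl2 was 0.886 (0.813–0.965) in Xist nuclei and 0.357 (0.323–0.395) in Y nuclei.

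Gm29683, a long noncoding RNA gene on chr7:70178868-70337852, was the lowest of all compared genes. It was at 8.22 CPM in Q153R against 21.3 in Ctrl and 22.9 in KD, so Q153R alone was low. Its ratio was 0.385 (0.276–0.530), and 0.338 (0.245–0.466) within clusters, below 1 in all 3 clusters with enough UMIs. In Xist nuclei it was 0.542 (0.328–0.865) and in Y nuclei 0.160 (0.0906–0.272). Fyb2, an adaptor protein gene, was at 16.4 CPM in Q153R against 29.3 in Ctrl and 26.4 in KD, a ratio of 0.561 (0.440–0.712). Fyb2 had 0.704 (0.531–0.924) in Xist nuclei and 0.654 (0.286–1.53) in Y nuclei, both nearer 1 than the pooled ratio. It was concentrated in cluster 0, where it went from 178 CPM to 83.2 CPM, a ratio of 0.467 (0.345–0.625), in the same cluster in which Nr4a3 and Sema3c were higher. Mdh2, which encodes mitochondrial malate dehydrogenase, had 0.614 (0.480–0.783), with 0.628 (0.445–0.872) in Xist nuclei and 0.539 (0.324–0.898) in Y nuclei. Utp6, a ribosome biogenesis factor, had 0.617 (0.474–0.798), Tmod1, which caps actin filaments, 0.628 (0.463–0.845), As3mt, an arsenic methyltransferase, 0.637 (0.491–0.821), and Tes, a focal adhesion protein gene, 0.646 (0.485–0.855). Rfwd3, a ubiquitin ligase of DNA repair, had 0.658 (0.504–0.855), Pgm3, of hexosamine synthesis, 0.662 (0.507–0.861), and Dysf, of membrane repair, 0.664 (0.510–0.859). In Y nuclei As3mt had 1.05 (0.487–2.39) and Rfwd3 1.01 (0.538–1.99), from few UMIs. The unnamed A830019P07Rik, a leading gene of cluster 13, had 0.530 (0.405–0.689), and that cluster took 2.91% of Q153R and 4.58% of Ctrl nuclei. C77080 had 0.552 (0.433–0.699), but 1 nucleus held over 10% of its UMIs.

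**Figure D4:**
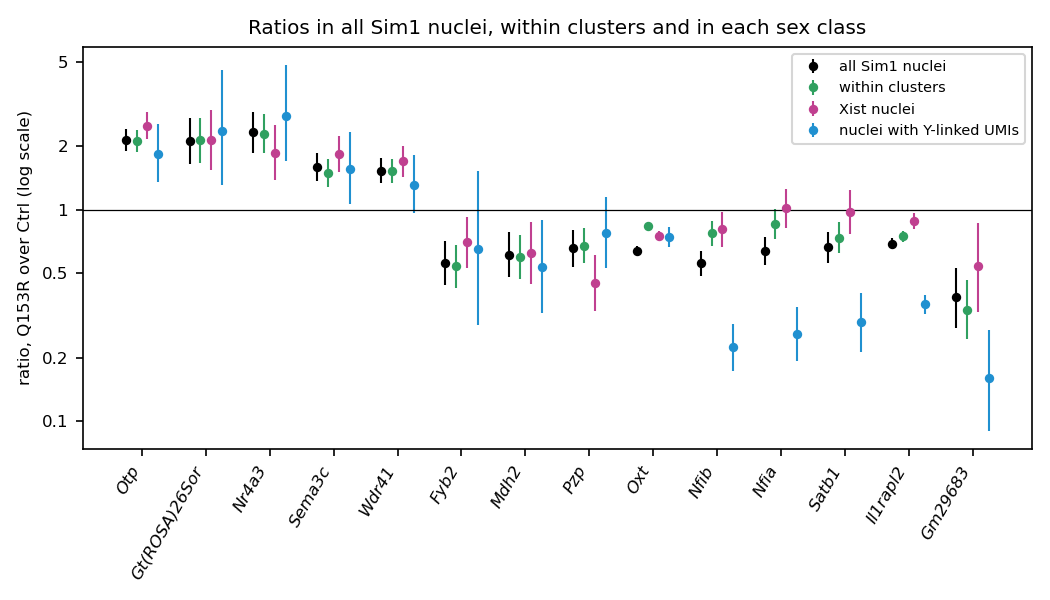
Ratios of Q153R to Ctrl (log scale) for 14 genes in all Sim1 nuclei, within clusters, in Xist nuclei and in nuclei with Y-linked UMIs, with 95% intervals for counting error. Otp, Gt(ROSA)26Sor, Nr4a3, Sema3c and Wdr41 lay above 1 and Mdh2 below 1 in both sex classes, whereas Nfia and Satb1 lay near 1 in Xist nuclei and near 0.26 and 0.29 in Y nuclei.

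Neuropeptide genes were on the whole slightly lower in Q153R. Of 39 listed, 15 were compared, of which 13 lay below 1 and 2 above, and the median log2 ratio was −0.17, against −0.02 over all compared genes, of which 55.5% lay below 1. Oxt, which encodes oxytocin, was the one past 1.5-fold lower and Ucn3, which encodes urocortin 3, the one past 1.5-fold higher. Oxt was at 473 CPM in Q153R against 737 in Ctrl and 520.5 in KD, a ratio of 0.642 (0.614–0.671), or 0.838 (0.801–0.876) within clusters. The ratio of Oxt was 0.749 (0.709–0.792) in Xist nuclei and 0.747 (0.670–0.833) in Y nuclei, short of 1.5-fold in both. In Ctrl, Xist nuclei held Oxt at 786 CPM and Y nuclei at 520 CPM. Nuclei with 20 or more Oxt UMIs numbered 38 in Q153R, or 3.25% (2.31–4.43), against 58 in Ctrl, or 4.92% (3.75–6.31), and 33 in KD, or 3.67%. Those nuclei held Oxt at 9408 CPM in Ctrl and 8541 CPM in Q153R. They accounted for 82.4% of Oxt UMIs in Ctrl and 67.1% in Q153R. The level of free Oxt RNA, which can give UMIs in the other nuclei, was not measured. The lower total came with fewer nuclei of high Oxt content and a somewhat lower level in them. In the other nuclei the level was 162 CPM in Q153R and 138 CPM in Ctrl. The limit of 20 UMIs was not scaled to depth, and Q153R nuclei had fewer UMIs (median 5022 against 5866). The part of depth in the number of nuclei past that limit was not tested. In cluster 15, the Oxt cluster, the level was 8756 CPM in Ctrl and 7192 CPM in Q153R, a ratio of 0.821 (0.771–0.875). In cluster 9, led by Esr2, it was 2361 and 1839 CPM, a ratio of 0.779 (0.709–0.856).

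Avp, which encodes vasopressin, was close between pools at 737 CPM in Ctrl and 711 CPM in Q153R, a ratio of 0.965 (0.927–1.004). Nuclei with 20 or more Avp UMIs made up 5.08% of Ctrl and 5.82% of Q153R, and held it at 11940 and 9819 CPM. Sst (somatostatin) had 0.802 (0.739–0.869), Trh (thyrotropin-releasing hormone) 0.920 (0.809–1.05) and Crh (corticotropin-releasing hormone) 0.982 (0.819–1.18). The interval lay below 1 for Sst alone of these 3, but Sst ran in opposite directions in the sex classes, with 0.719 (0.645–0.800) in Xist nuclei and 1.39 (1.101–1.78) in Y nuclei. Avp did so the other way round, with 1.11 (1.06–1.17) and 0.830 (0.756–0.912). Bdnf, a neurotrophin needed for appetite control, had 0.779 (0.658–0.921), and Nucb2, the precursor of nesfatin, 0.810 (0.661–0.990). Penk, an opioid precursor, had 1.16 (0.998–1.34), with 0.921 (0.746–1.13) in Xist nuclei and 1.20 (0.883–1.66) in Y nuclei. Ucn3 stood at 20.2 CPM in Q153R and 12.3 CPM in Ctrl, but in cluster 14, which holds most of it, the level was 388 and 411 CPM. That cluster took 3.85% of Q153R and 2.54% of Ctrl nuclei. The pooled Ucn3 ratio was 1.64 (1.25–2.17), and its ratio within clusters was 0.9999 (0.767–1.30).

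Genes of peptide granules mostly lay slightly lower in Q153R. Of 29 genes of granules and peptide processing, all compared, 22 lay below 1 (75.9%) and 7 above. Over all compared genes 55.5% lay below 1. None of the 29 was past 1.5-fold, and their median log2 ratio was −0.09. Granins, which form the granule core, were lower except Chga: Vgf had 0.743 (0.640–0.861), Chgb 0.824 (0.727–0.933), Scg3 0.878 (0.778–0.991) and Scg2 0.889 (0.830–0.951), against 1.04 (0.872–1.23) for Chga. The convertases Pcsk1 and Pcsk2, which cut the precursors, were at 1.20 (1.099–1.30) and 1.099 (1.06–1.14), and Pam, which amidates the products, at 1.12 (1.08–1.15). Cpe, which trims them, was at 0.928 (0.877–0.982). Of the 18 genes of docking and release, 15 lay below 1.

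PVH transcription factors were mostly slightly higher. Of 72 listed, 38 were compared, 26 above 1 (68.4%) and 12 below, against 44.5% above 1 over all compared genes. Their median log2 ratio was 0.07, with the 3 genes named above past 1.5-fold lower. Sim1, on which the nuclei were chosen, had 1.08 (1.04–1.13), Arnt2, its partner, 1.06 (0.991–1.13) and Pou3f2, which acts downstream of them, 0.859 (0.738–0.999), with 1.06 in Xist nuclei and 0.707 in Y nuclei for Pou3f2. Zfhx3, Zfhx4, Tshz2 and Pbx3, homeobox factors, lay between 1.13 and 1.16, but Zfhx3 had 0.964 (0.912–1.02) in Xist nuclei and 1.76 (1.60–1.93) in Y nuclei. Ebf1 had 1.16 (1.09–1.24) and Ebf3 1.17 (1.05–1.30), members of a helix-loop-helix family that sets neuron identity, and Rora, a clock-linked orphan receptor, 1.17 (1.13–1.22). Foxp2, a forkhead factor, had 0.939 (0.887–0.995). Among 14 nuclear receptors compared, 7 lay above 1 and 7 below. Nr2f1, a COUP factor, was the lowest with 0.686 (0.538–0.871).

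Of 86 receptors of energy balance, 30 were compared, 13 above 1 and 17 below, none past 1.5-fold, and the median log2 ratio was −0.02, equal to that of all genes. Galr1, a galanin receptor, had 1.45 (1.15–1.83), Htr1f, a serotonin receptor, 1.42 (1.18–1.70) and Calcr, the calcitonin receptor, 1.25 (1.13–1.37). Calcr had 1.34 (1.18–1.51) in Xist nuclei and 0.836 (0.679–1.03) in Y nuclei. Qrfpr, the receptor for the peptide 26RFa, had 0.671 (0.501–0.893), with 0.433 (0.268–0.675) in Xist nuclei and 1.22 (0.650–2.41) in Y nuclei, and its cluster 13 took 2.91% of Q153R and 4.58% of Ctrl nuclei. Insr, the insulin receptor, had 0.876 (0.789–0.972), Igf1r 0.902 (0.843–0.965) and Ghr, the growth hormone receptor, 0.866 (0.822–0.913). Ghr ran in opposite directions in the sex classes, with 0.712 (0.663–0.765) in Xist nuclei and 1.41 (1.24–1.61) in Y nuclei. Irs2, an adaptor of insulin signalling, was at 47.9 and 34.1 CPM, a ratio of 1.41 (1.19–1.67), while the 28 genes from insulin receptor to mTOR had a median log2 ratio of −0.01. Of 45 genes of cAMP signalling, 20 lay above 1 and none was past 1.5-fold.

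Activity genes formed the list with the highest median. Of 22 listed, 8 reached 200 UMIs, 6 of them above 1, and the median log2 ratio was 0.41, or 0.13 in Xist nuclei over 5 genes. Npas4, an activity-specific factor, had 1.45 (1.21–1.75), with 1.05 (0.815–1.35) in Xist nuclei and 2.36 (1.40–4.17) in Y nuclei, Junb 1.38 (1.11–1.70) and Nr4a1 1.29 (1.09–1.53), whereas Jund had 0.912 (0.702–1.18) and Btg2 0.927 (0.782–1.098).

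**Figure D5:**
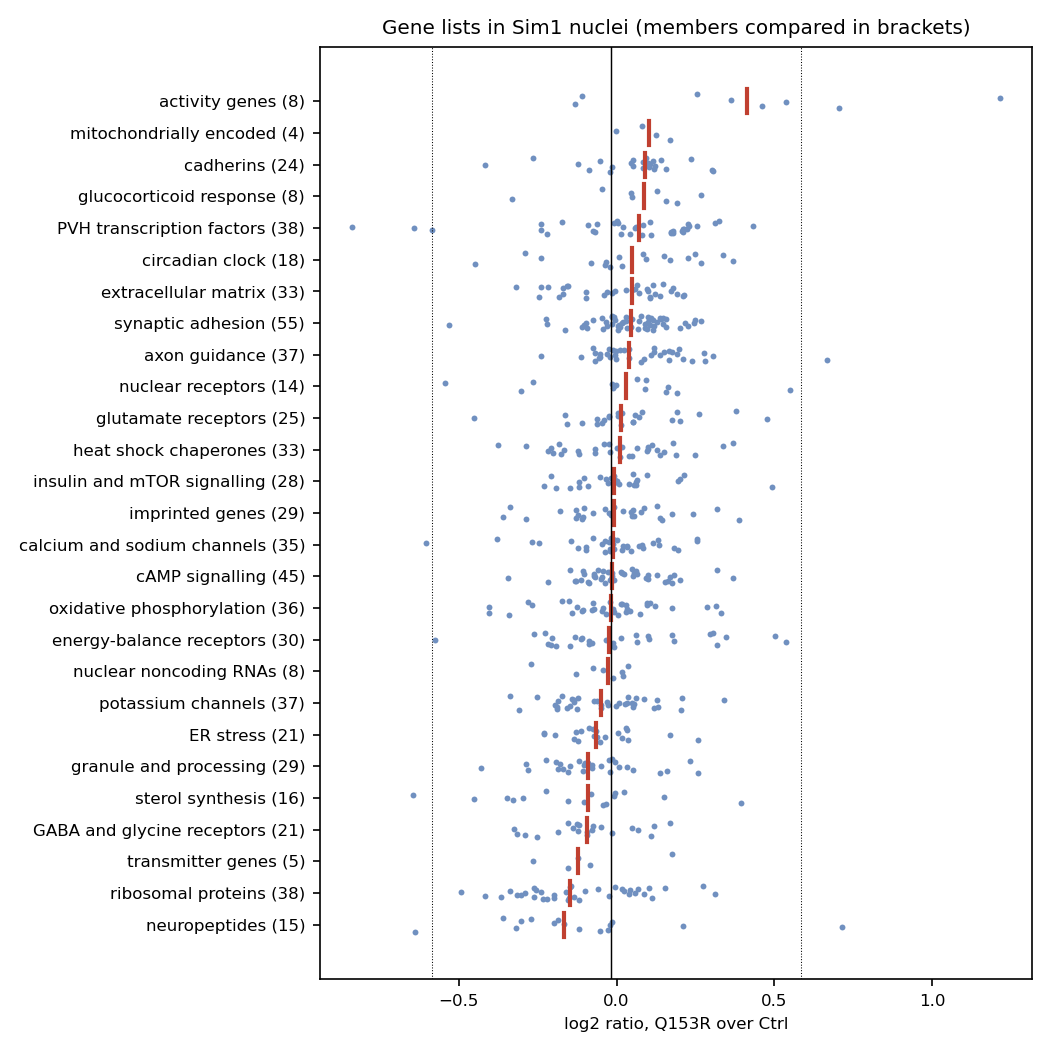
Log2 ratios of Q153R to Ctrl for the compared members of 27 gene lists (points) with the median of each list (red bars), where the solid line marks the median of all compared genes, −0.02, and dotted lines 1.5-fold. Activity genes have the highest median at 0.41 and neuropeptides the lowest at −0.17.

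Synaptic and excitability genes differed little. Of 55 synaptic adhesion genes compared, 37 lay above 1 (67.3%), with a median log2 ratio of 0.05. Of 24 cadherins 17 lay above 1 (70.8%), with a median of 0.09, against 44.5% above 1 over all compared genes. Tenm2 had 1.18 (1.16–1.20) and 1.03 (1.01–1.05) within clusters, Cntn5 1.19 (1.16–1.22) and 1.14 (1.12–1.17), and Cdh6 1.23 (1.14–1.34) and 1.26 (1.17–1.37). Cdh20 was the lowest cadherin with 0.749 (0.668–0.839), and it had 0.926 (0.792–1.08) in Xist nuclei and 0.361 (0.287–0.453) in Y nuclei. Of 21 GABA and glycine receptor genes compared, 16 lay below 1 (76.2%), against 55.5% of all compared genes. Their median log2 ratio was −0.09, or −0.04 within clusters. Gphn, which encodes the scaffold gephyrin, had 0.916 (0.887–0.946). Of 25 glutamate receptor genes, 15 lay above 1. Grm8, a metabotropic receptor, went from 576 to 749.5 CPM with 797 CPM in KD, a ratio of 1.30 (1.25–1.36), or 1.18 (1.13–1.23) within clusters, and it had 1.41 (1.33–1.48) in Xist nuclei and 1.13 (1.03–1.24) in Y nuclei. Slc17a6, the vesicular glutamate transporter of these neurons, had 0.8997 (0.822–0.985). Of 37 axon guidance genes, 22 lay above 1, among them the guidance ligand Slit2 with 1.21 (1.16–1.27) in 15 of 20 clusters. Of 37 potassium channel genes, 15 lay above 1, and Kcnt1, a sodium-activated channel, had the highest ratio, 1.27 (1.12–1.44).

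A threshold of 1.25-fold for genes with at least 1000 UMIs, set after the values were seen, held 27 higher genes of 2717 (0.994%) and 13 lower (0.478%). The higher genes included Rgs7bp, an anchor of RGS proteins (1.45, 1.33–1.57), Rerg, a small GTPase (1.43, 1.28–1.60), Cntnap5c, a contactin-associated protein (1.42, 1.29–1.56), Mtcl1, a microtubule crosslinker (1.38, 1.22–1.57), Lgi1, a secreted synaptic protein (1.31, 1.17–1.46), Hivep2, a zinc finger factor (1.29, 1.23–1.35), and Sik2, a salt-inducible kinase (1.28, 1.18–1.39). Hivep2 stood higher in 18 of 20 clusters and Rgs7bp in 13 of 18. The lower genes included Trpc4, a cation channel (0.769, 0.676–0.874), Galnt17, a glycosyltransferase (0.775, 0.718–0.836), Slc6a15, an amino acid transporter (0.787, 0.693–0.893), and Pde1c, a phosphodiesterase (0.788, 0.714–0.870). The ratio of Pde1c within clusters was 0.977 (0.886–1.08).

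Housekeeping lists gave small medians. Of 38 ribosomal protein genes compared, 26 lay below 1 (68.4%), against 55.5% of all compared genes. Their median log2 ratio was −0.15 over all nuclei and −0.01 in Xist nuclei over 17 genes. Of 16 sterol synthesis genes, 13 lay below 1 and 3 above, with a median of −0.09 and a highest ratio of 1.32. Acat2, a thiolase of the pathway, was past 1.5-fold at 0.640 (0.476–0.855). Acat2 had 0.847 (0.560–1.26) in Xist nuclei and 0.440 (0.234–0.818) in Y nuclei. Msmo1 had 0.732 (0.606–0.880), Sc5d 0.787 (0.650–0.9504) and Cyp51 0.798 (0.678–0.937), all 3 enzymes of late sterol steps. Cyp51 had 0.717 (0.572–0.893) in Xist nuclei and 1.17 (0.790–1.76) in Y nuclei. Of 36 oxidative phosphorylation genes, 20 lay below 1 (55.6%), near the 55.5% of all compared genes, and none was past 1.5-fold.

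Promoter windows of 300 bases, 250 before and 50 after the start, were read from RefSeq (GRCm38.p6) for the named genes. Of the 15 highest genes 12 had a window, and of the 15 lowest genes 12 had at least 1, for 13 windows in all. The homeobox core TAATTA, searched on both strands, was in 0 of the 12 and 0 of the 13, against 2.75% of the windows of compared genes and 5.29% of all 32851 windows. With a share this low, 0 matches in so few windows cannot set either group of genes apart. The core ACGTG of bHLH-PAS dimers such as Sim1 with Arnt2 was in 3 of 12, those of Npsr1, Nr4a3 and Sema3c, and in 2 of 13 (15.4%), those of Dysf and Pgm3, against 25.8% of the windows of compared genes. The nuclear receptor half-site TGACC was in 1 of 12 and in 4 of 13 (30.8%), those of Oxt, Rfwd3 and Dysf, against 35.8%. TGACC was added to the search after the Oxt promoter had been looked at. The 250 bases upstream of the named genes with the most ACGTG and the most TGACC matches are shown with the matched letters in capitals, ACGTG for Npsr1 and TGACC for Oxt on either strand.
Npsr1, chr9:24097768-24098017, plus strand: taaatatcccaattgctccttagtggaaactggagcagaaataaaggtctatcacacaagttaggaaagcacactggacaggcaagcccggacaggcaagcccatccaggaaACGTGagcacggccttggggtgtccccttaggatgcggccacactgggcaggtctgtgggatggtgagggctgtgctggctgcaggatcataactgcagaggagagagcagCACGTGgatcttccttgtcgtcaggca
Oxt, chr2:130575919-130576168, plus strand: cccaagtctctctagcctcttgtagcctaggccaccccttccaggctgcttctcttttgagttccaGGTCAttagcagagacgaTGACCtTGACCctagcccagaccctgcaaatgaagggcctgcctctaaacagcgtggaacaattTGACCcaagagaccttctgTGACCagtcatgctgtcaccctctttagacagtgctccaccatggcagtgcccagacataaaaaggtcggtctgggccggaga
A match describes letters only. Npsr1 holds 3 matches, 2 of which overlap on opposite strands, and Oxt holds 5.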

How the data were processed

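Single-nucleus RNA of the PVH was counted in 1 gene expression library that pools 17 mice, with the hashtags in the same matrix. The deposited matrix holds raw UMI counts, as the authors' counting software wrote them, for each gene in each barcode. Per the submitters' processing notes these came from Cell Ranger 6.0.0 on mm10, while the file header names version 7.0.0. The sources used here do not give the intron and strand settings.

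Library sizes were summed over gene rows. Each pool's UMIs were summed per gene, and the ratio of levels was given an exact conditional binomial 95% interval (exact Poisson for levels, exact binomial for shares). With 1 pool per genotype there are no replicates, so a fold threshold of 1.5 on genes with at least 200 UMIs stands in place of a test. The Sim1 nuclei of the 3 pools were clustered with scanpy 1.11.5 (2000 variable genes, 30 components, 15 neighbours, Leiden resolution 1) into 20 clusters, which serve as strata and are called by number and leading genes. Listed genes and genes past 1.5-fold were left out of the clustering. For ratios within clusters, clusters were combined by the Mantel-Haenszel method, with intervals after Greenland and Robins, and a cluster was counted for a gene with at least 20 UMIs there. The ratio functions were tested on simulated data. Gene positions came from GENCODE vM21, which held 30934 of the gene IDs. Python 3.11.15, scipy 1.17.1 and edgeR 4.0.16 (TMM factors only) were used.

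Named genes are the 15 highest and 15 lowest ratios (no accession-type names, no sex-linked genes, at most 10% of UMIs in 1 nucleus), the 3 highest and lowest unnamed models, list members past 1.5-fold, up to 6 members per list with the most UMIs, and the 10 genes with the most UMIs. Others, such as Il1rapl2, Irs2, Vgf, Galr1, C77080 and the genes of the 1.25-fold threshold, were chosen after their values were seen. So were that threshold, the tables by sex class and cluster share, the limit of 20 Oxt or Avp UMIs, 2 of the 19 alternatives, and the TGACC motif, which replaced another motif searched first. The members and lists were chosen with earlier results of these data known. A few genes are not reported here.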

Additional observations from a re-analysis of the deposited data

How the results depend on the processing

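There is 1 pool per genotype, so animals could not be left out in turn and the intervals cover counting error only. No paired analysis was possible because each genotype is a single pool. Counts of genes past 1.5-fold (29 higher, 24 lower) moved with depth and filter: 198 and 293 at 50 UMIs or more, 7 and 5 at 500 or more, and 17 and 11 with nuclei thinned to 2942 UMIs. They were 18 and 23 of 6250 genes tested in Xist nuclei, 51 and 33 of 3105 in Y nuclei, 32 and 69 of 9382 over all nuclei with 1 tag, and 25 and 15 of 8157 within clusters. In Xist nuclei 24 of the 29 and 23 of the 24 kept their side of 1, where the 4 Y-linked genes had no ratio. Xist nuclei are part of the nuclei from which these genes were called, so this is no independent check. Fewer genes both met the UMI minimum and stayed past 1.5-fold: 7 of the 29 and 3 of the 24 in Xist nuclei. They were 2 and 2 in Y nuclei, and 8 and 4 with nuclei thinned. Of 548 list medians under 19 alternatives, 520 stayed, 23 moved and 5 turned sign. Of 3757 values of single genes, 3318 stayed within their interval and 431 left it, a crossing of 1 being counted apart only for genes past 1.5-fold (8 values).

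Activity genes (main 0.41) had a median log2 ratio of 0.60 at 2 Sim1 UMIs, 0.29 with a higher minimum of genes per nucleus, 0.25 at 500 UMIs, 0.22 thinned, 0.13 in Xist nuclei and 0.58 in Y nuclei, the last from 1 gene. Mitochondrially encoded genes had −0.028 at 2 Sim1 UMIs, −0.25 over all nuclei with 1 tag, −0.067 within sex classes, 0.31 in Xist nuclei and 0.21 without nuclei near multiple-tag nuclei. Neuropeptides had −0.046 over all nuclei with 1 tag and −0.27 thinned, transmitter genes −0.23 over all nuclei with 1 tag and −0.26 in Y nuclei. Ribosomal protein genes had 0.025 at 500 UMIs, −0.012 in Xist nuclei and 0.056 in Y nuclei, and sex-linked genes −0.21 at 500 UMIs, −0.26 thinned and 0.027 within sex classes. Thinning gave −0.10 for clock genes and −0.15 for energy-balance receptors, and glucocorticoid response genes had −0.038 in Xist nuclei. In Y nuclei PVH transcription factors had 0.19, nuclear receptors 0.36, chaperones 0.23 and GABA and glycine receptors 0.066.

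Of genes past 1.5-fold, ratios that crossed 1 were those of Ucn3 within clusters (0.9999), Nfia in Xist nuclei (1.02), Oxt without nuclei with 20 or more Oxt or Avp UMIs (1.17), As3mt (1.05), Rfwd3 (1.01), Ddx3y (0.979) and Kdm5d (0.874) in Y nuclei, and Kdm5d within sex classes (0.900). The nuclei left for Oxt held under 20 of its UMIs each, and free RNA was not measured there. Other named genes closer to 1, such as Sst, Ghr and Calcr, crossed 1 as well. The cause was not tested.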

Other observations

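Some gene groups not described above were close between the pools. Of 29 imprinted genes compared, 14 lay above 1 and 15 below, with a median log2 ratio of −0.01. Ube3a, a ubiquitin ligase imprinted in neurons, was at 1298 CPM in Q153R and 1470.5 CPM in Ctrl, a ratio of 0.883 (0.858–0.908), or 0.881 (0.856–0.907) within clusters. Gnas, the stimulatory G protein gene, had 0.974 (0.941–1.01), Nnat, a proteolipid gene, 1.04 (0.999–1.08), and Peg10, a retrotransposon-derived gene, 1.31 (1.17–1.46). Peg10 had 1.08 (0.932–1.25) in Xist nuclei and 1.36 (1.08–1.72) in Y nuclei. Of 18 clock genes, 11 lay above 1, with a median log2 ratio of 0.05, and Clock itself had 0.986 (0.906–1.07). Rorb, an orphan receptor of the clock list, had 0.847 (0.776–0.924), on the other side of 1 from Rora. Rorb had 0.942 (0.833–1.06) in Xist nuclei and 0.497 (0.421–0.587) in Y nuclei.

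Of 33 heat shock and chaperone genes compared, 18 lay above 1, none was past 1.5-fold, and the median log2 ratio was 0.01. St13, an Hsp70 cochaperone, had 1.13 (1.03–1.25) and Dnajb4, an Hsp40 protein, 0.865 (0.771–0.971). Of 33 extracellular matrix genes, 18 lay above 1. Gpc6, a heparan sulfate proteoglycan, had 1.16 (1.13–1.19), or 1.07 (1.04–1.101) within clusters, and Brinp3, a secreted neural protein, 1.11 (1.08–1.14), or 1.08 (1.05–1.11) within clusters.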
